A study of Mus musculus with 6 samples.

Results

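Checkpoint receptors and exhaustion regulators are 9 genes, chosen by name and all found among the 15686 genes of the deposited table. Co-inhibitory receptors are surface proteins that T cells raise when their antigen receptor is engaged and that then dampen its signal, by recruiting phosphatases or by competing with activating receptors for a shared ligand. When antigen persists, several of them are held together on the same cell, a state called exhaustion, in which the nuclear factor Tox and the T-box factor Eomes take part. In graft-versus-host disease, donor T cells meet host antigen continuously, and these receptors are known as brakes on the response. Of the members, 7 are receptors (Pdcd1, Tigit, Ctla4, Havcr2, Lag3, Cd160 and Btla) and 2 are transcription regulators (Tox and Eomes).

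RNA was measured in CD4+ T cells isolated from mouse spleen with a commercial kit after transplantation of haematopoietic stem cells, in 3 libraries labelled allogeneic (donor C57BL/6, host Balb/c) and 3 labelled syngeneic (donor and host Balb/c). The strain is given as Balb/c for every library, and the sources used here do not give age, time after transplantation, conditioning or pooling. Whether replicates came from separate mice is not stated, and the p-values then reflect only library-to-library spread, which may be technical. The depth implied by the values was 14.8 to 16.96 megareads per library.

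The group names follow the cell type label, and 4 of the strain-dependent genes examined go against it while Gbp2b goes with it. Ighg2c, an antibody gene carried by C57BL/6 mice, stood at 16.3 ± 0.247 FPKM (fragments scaled to gene length and library depth, mean ± SD, n = 3) where C57BL/6 was the named donor and at 9605 ± 270 FPKM where Balb/c was. H2-Ea-ps, which C57BL/6 mice do not transcribe, stood at 133 ± 3.02 FPKM in the group with the C57BL/6 label and at 21.1 ± 2.73 FPKM in the other. Ly6a, which C57BL/6 lymphocytes carry at higher levels, was at 32.9 ± 1.66 against 329 ± 33.9 FPKM, and Trbv26, a receptor segment whose T cells are deleted in Balb/c mice, at 0.402 ± 0.438 against 56.5 ± 3.25 FPKM. Gbp2b, which C57BL/6 mice express poorly, was lower in the group with the C57BL/6 label, at 18.5 ± 0.613 against 31.3 ± 1.07 FPKM, but higher relative to the CD3 chains (log2 difference 0.32). The sample titles carry S for the group labelled allogeneic and A for the one labelled syngeneic. Every direction below is therefore a difference between libraries as labelled. Were the labels swapped, as the 4 genes read, each direction would belong to the other transplant. A swap was not tested in any other way. Donor strain also differs between the groups as labelled, so transplant type and donor strain cannot be told apart for any member.

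Cell make-up differed too, with Cd4 present in every library. The summed level of 7 macrophage markers was 467 to 487 FPKM in the group labelled allogeneic against 105 to 117 FPKM, that of 7 granulocyte markers 2917 to 3045 against 853 to 1007, and that of 6 red cell markers 318 to 324 against 6.35 to 8.61. In FPKM as deposited, 5 of 5 plasma cell markers were called lower, beside 26.6% of all genes tested. Their sum was 486 to 507 against 796 to 822 FPKM, and immunoglobulin genes took 9.03 to 9.28% against 24.8 to 26.1% of all FPKM. Scaled to the CD3 chains, 1 plasma cell marker was called lower (Mzb1, log2 difference −1.07), 2 higher and 2 were not called. Over all genes on that scale 4.13% were called lower and 86.2% higher. The sum of the plasma cell markers was then higher in the group labelled allogeneic, at 1512 to 1573% against 1130 to 1252% of the CD3 level. Jchain, at 390 ± 5.64 against 507 ± 12.9 FPKM, makes up most of that sum in both groups, so its direction is that of Jchain. The part of these cells in the differences of the members was not tested. Taken as a geometric mean, the 4 CD3 chains, the signalling subunits that every T cell receptor needs, stood at 32.3 ± 0.654 FPKM against 68.7 ± 2.99. In bulk RNA fewer T cells and less RNA per T cell cannot be told apart, so each member is given as FPKM and relative to the CD3 chains of the same library.

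The promoters of 3 members are shown because Pdcd1 and Tigit had the largest falls and Eomes was the only member with higher FPKM in the group labelled allogeneic. They are RefSeq windows on build GRCm38.p6 of 250 bases before and 50 bases after the start of transcription, printed 5′ to 3′ on the strand of the gene. The Pdcd1 window lies at chr1:94052504-94052803 (minus strand), that of Tigit at chr16:43664135-43664434 (minus strand) and that of Eomes at chr9:118477939-118478238 (plus strand). Capitals mark matches on either strand to the motifs searched, which were GGAAA for NFAT, TGANTCA for AP-1, GGTGTNA for T-box factors, TGTGGT for RUNX and AAAGGTCA for NR4A, factors that act in activated T cells.

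Pdcd1: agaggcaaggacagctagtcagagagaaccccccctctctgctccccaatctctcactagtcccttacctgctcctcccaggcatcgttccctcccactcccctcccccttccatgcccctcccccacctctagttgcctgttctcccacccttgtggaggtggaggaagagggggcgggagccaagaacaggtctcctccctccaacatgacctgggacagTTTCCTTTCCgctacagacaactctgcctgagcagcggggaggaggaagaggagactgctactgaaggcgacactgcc

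Tigit: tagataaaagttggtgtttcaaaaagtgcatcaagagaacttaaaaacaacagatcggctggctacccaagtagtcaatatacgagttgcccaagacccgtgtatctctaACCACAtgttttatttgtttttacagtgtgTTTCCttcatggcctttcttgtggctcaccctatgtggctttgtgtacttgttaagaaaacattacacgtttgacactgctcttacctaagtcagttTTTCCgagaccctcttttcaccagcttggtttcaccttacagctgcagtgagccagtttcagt

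Eomes: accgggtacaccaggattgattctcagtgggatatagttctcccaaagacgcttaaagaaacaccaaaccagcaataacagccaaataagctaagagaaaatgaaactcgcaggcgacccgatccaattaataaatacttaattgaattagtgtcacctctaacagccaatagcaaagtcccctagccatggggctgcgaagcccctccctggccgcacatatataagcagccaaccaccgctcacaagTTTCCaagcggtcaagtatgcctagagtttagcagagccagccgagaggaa

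The capitals in Pdcd1 are 2 adjoining copies of TTTCC, the NFAT core read from the opposite strand, and Tigit has 2 separate copies and 1 ACCACA, the RUNX motif read from the opposite strand. The NFAT core occurred 2 times in the Pdcd1 window, 2 times in that of Tigit and 1 time in that of Eomes, where it begins at the last base before the start site, and it also occurs in 61.3% of all 32851 promoter windows. The RUNX motif is present in 16.8% of windows, the T-box motif in 10.2%, the AP-1 motif in 7.81% and the NR4A motif in 1.51%, and matches of different motifs did not overlap in the windows printed. Among the 7 members with a window, the AP-1 letters occurred in that of Havcr2 and the T-box letters in the second of 2 windows of Cd160. A match describes letters and not binding.

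On FPKM as deposited, the libraries labelled allogeneic had less of all 7 receptors and of Tox, and more Eomes. Thus 8 of 9 members were called lower, against 26.6% of the 13235 genes tested, and 1 was called higher, against 40.7% (limma on log2(FPKM + 1), Benjamini-Hochberg adjusted p below 0.05). Groups did not overlap for any of the 9 members, which held for 72.5% of genes. The median log2 difference of the 9 was −1.82, beside 0.09 for all genes tested. Each member passed the filter on low values of 1 FPKM in 3 libraries.

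**Figure D1:**
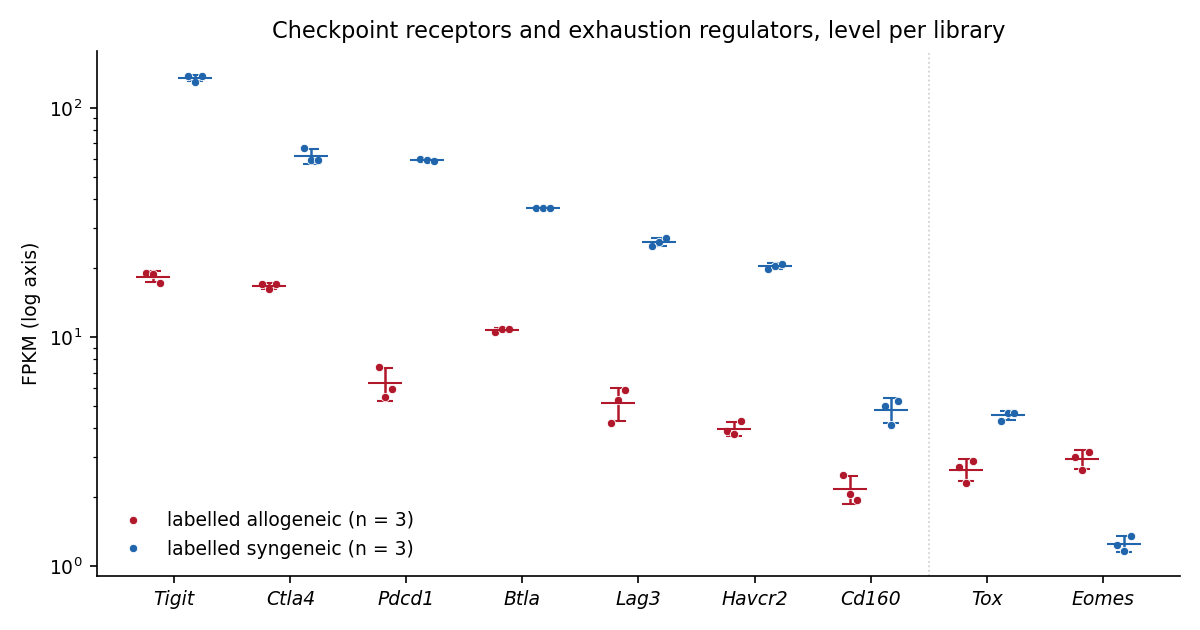
Level of each member in each library, in FPKM on a log axis, with points for libraries and bars for the mean and SD (n = 3 per group). The 7 receptors and Tox lie lower in the group labelled allogeneic (red) without overlap, and Eomes lies higher, at 2.62 to 3.16 against 1.17 to 1.36 FPKM.

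Pdcd1 encodes PD-1, the receptor for PD-L1 and PD-L2 that recruits the phosphatase SHP-2 (ENSMUSG00000026285, chromosome 1, 94038305 to 94052553, build GRCm38). It stood at 7.43, 5.48 and 5.95 FPKM in replicates 1, 2 and 3 labelled allogeneic and at 59.9, 59.2 and 58.5 FPKM in those labelled syngeneic. The lowest library of the second group was far above the highest of the first, and the mean was 9.42-fold higher (log2 difference −3.06, SE 0.09, limma adjusted p = 9.13e-07). These values rest on 171 to 233 reads per library in the lower group and 1675 to 1961 in the higher. By mean level Pdcd1 lay above 52.1% of genes in the first group and above 94.4% in the second.

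Tigit, the receptor that competes with the activating receptor CD226 for the ligand CD155 (ENSMUSG00000071552, chromosome 16, 43648867 to 43664146), was the most abundant member in both groups. Its level was 19.04, 18.8 and 17.2 FPKM against 137.9, 129.7 and 137.3 FPKM, in the same order of groups and replicates. No library of one group came near the other, a 7.35-fold difference in means (−2.81, SE 0.05, limma adjusted p = 1.65e-07). Only 0.710% of genes tested had a lower log2 difference, and 0.635% did for Pdcd1.

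Ctla4 encodes the receptor that binds CD80 and CD86 in competition with CD28, and regulatory T cells hold it constantly (ENSMUSG00000026011, chromosome 1, 60887000 to 60915832). Replicates labelled allogeneic were at 17.03, 16.2 and 17.1 FPKM and those labelled syngeneic at 66.98, 58.9 and 59.1 FPKM. The groups stood clearly apart, by 3.68-fold (−1.82, SE 0.06, limma adjusted p = 1.06e-06). The 3 markers of regulatory T cells listed summed to 33.6 to 33.99 FPKM against 24.1 to 25.3. Of them Foxp3, which defines the lineage, stood at 15.6 ± 0.203 against 5.99 ± 0.227 FPKM and Ikzf2 was also called higher. Il2ra, at 9.08 ± 0.574 against 14.4 ± 0.200 FPKM, was called lower, as Ctla4 was. All 3 markers were called higher relative to the CD3 chains, as were 86.2% of all genes. On that scale the log2 difference of Il2ra was 0.39, while Ctla4 stayed lower (−0.76). The part of regulatory T cells in the Ctla4 difference was not tested.

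Btla, which binds the TNF receptor family member HVEM (ENSMUSG00000052013, chromosome 16, 45224315 to 45257670), varied least between replicates. It was at 10.5, 10.9 and 10.8 FPKM against 36.6, 36.7 and 36.6 FPKM. That is a 3.41-fold difference with hardly any spread inside a group (−1.68, SE 0.03, limma adjusted p = 2.04e-07). B cells carry Btla as well, and of the B cell markers listed, Cd79a was at 7.64 ± 1.09 against 11.1 ± 0.761 FPKM and Cd79b at 12.03 ± 0.894 against 21.5 ± 1.92 FPKM. The part of B cells in the Btla difference was not tested.

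Lag3 encodes a CD4-related receptor for MHC class II (ENSMUSG00000030124, chromosome 6, 124904361 to 124911705) and lies 16139 bases from Cd4. Its level was 4.23, 5.34 and 5.87 FPKM in the group labelled allogeneic and 24.9, 25.9 and 26.97 FPKM in the other. All 3 libraries of the second group were higher, with means 5.04-fold apart (−2.14, SE 0.10, limma adjusted p = 4.36e-06). Havcr2, the receptor TIM-3 (ENSMUSG00000020399, chromosome 11, 46454935 to 46481255), was at 3.89, 3.77 and 4.31 FPKM against 19.8, 20.5 and 20.9 FPKM. The 5.11-fold difference (−2.10, SE 0.06, limma adjusted p = 5.36e-07) was close in size to that of Lag3. Macrophages and dendritic cells can also carry TIM-3, and the macrophage markers are given above. The 6 dendritic cell markers summed to 17.9 to 18.3 against 6.82 to 8.35 FPKM, with Flt3, the first listed, at 11.1 ± 0.330 against 1.33 ± 0.247 FPKM. Of the 4 that could be tested 2 were called higher, Itgax was not called and Xcr1 was called lower, at 0.415 ± 0.051 against 1.103 ± 0.094 FPKM. Over all genes tested 40.7% were called higher and 26.6% lower. The part of these cells in the Havcr2 difference was not tested.

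Cd160 encodes a receptor for HVEM found mainly on natural killer and CD8 T cells (ENSMUSG00000038304, chromosome 3, 96798763 to 96829351), and it was among the lowest members. It stood at 2.52, 2.06 and 1.96 FPKM against 5.02, 4.13 and 5.28 FPKM. Groups remained apart, by 2.21-fold (−0.87, SE 0.11, limma adjusted p = 0.000363), on 81 to 108 against 184 to 225 reads. Cd8a and Cd8b1, which define CD8 T cells, summed to 1.37 to 1.57 FPKM against 13.9 to 15.6 FPKM, and their part in the Cd160 difference was not tested.

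Of the regulators, Tox, an HMG-box protein needed for the exhausted state of CD8 T cells (ENSMUSG00000041272, chromosome 4, 6686353 to 6991557), had the smallest fall. It was at 2.73, 2.32 and 2.88 FPKM against 4.32, 4.68 and 4.67 FPKM, with no overlap. The difference was 1.73-fold (−0.61, SE 0.08, limma adjusted p = 0.000473). Eomes, a T-box factor of cytotoxic, memory and natural killer cells (ENSMUSG00000032446, chromosome 9, 118478212 to 118486132), went the other way, at 3.01, 2.62 and 3.16 FPKM against 1.23, 1.17 and 1.36 FPKM. The 3 libraries labelled allogeneic were all above the other 3, by 2.33-fold (0.80, SE 0.09, limma adjusted p = 0.000196), on 176 to 206 against 82 to 87 reads.

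Natural killer cells hold Eomes, and their markers were mixed. Ncr1, which defines them, stood at 9.29 ± 2.04 FPKM in the group labelled allogeneic and at 0.349 ± 0.070 FPKM in the other, while Gzma, shared with cytotoxic T cells, stood at 31.6 ± 2.13 against 118 ± 4.68 FPKM. Klrb1c was at 1.02 ± 0.232 against 2.51 ± 0.201 FPKM and Klre1, near the floor, at 0.553 ± 0.053 against 0.197 ± 0.098 FPKM. The sum of the 4 of 6 listed markers in the table was 38.9 to 46.3 against 116 to 126 FPKM. Gzma makes up most of that sum in both groups, so its direction is that of Gzma. The part of natural killer cells in the Eomes difference was not tested. Exons of Eomes share 118 bases with an antisense transcript, those of Tox 260 bases and those of Cd160 68 bases with Pdzk1 on the other strand, and a strand-specific protocol is not stated, so reads in those bases are uncertain.

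Relative to the CD3 chains the ranking was the same and the falls were smaller. Both follow largely from the scaling, which divides every gene of a library by the same factor. A member is given here as a percentage of the geometric mean FPKM of Cd3d, Cd3e, Cd3g and Cd247 in its library, and the limma fit was repeated on values scaled to that mean. Of the 9 members, 6 were called lower, against 4.13% of genes, and 2 were called higher, against 86.2%. That scaling moved the median log2 difference of all genes to 1.02, and the median of the 9 members was −0.76. Groups did not overlap for 8 members, beside 90.2% of genes.

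Pdcd1 was at 23.1, 17.3 and 18.1% of the CD3 level in the libraries labelled allogeneic and at 85.1, 84.1 and 89.6% in those labelled syngeneic. The difference of 4.43-fold (−2.05 on the log2 scale, SE 0.10, limma adjusted p = 4.51e-07) far exceeded the spread within groups. Tigit was at 59.1, 59.4 and 52.3% against 195.9, 184.01 and 210.4%, so in the second group its transcript outnumbered the CD3 mean per unit of length. Its log2 difference was −1.75 (SE 0.07, limma adjusted p = 2.24e-07).

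Ctla4, Lag3, Havcr2 and Btla also stayed lower on this scale. Havcr2 was at 12.4 ± 0.637% against 29.7 ± 2.09% (log2 difference −1.14, SE 0.07, limma adjusted p = 1.40e-06), and Lag3 was at 15.9 ± 2.47% against 37.8 ± 3.12% (−1.16, SE 0.11, limma adjusted p = 1.91e-05). Ctla4 stood at 52.0 ± 0.901% against 89.8 ± 5.78% (−0.76, SE 0.06, limma adjusted p = 4.64e-06). Btla had the smallest fall that passed the test, 33.3 ± 0.914% against 53.4 ± 2.36% (−0.65, SE 0.05, limma adjusted p = 7.59e-06). For each of these 4 the groups did not overlap.

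Cd160, Tox and Eomes behaved otherwise. Cd160 was at 7.81, 6.51 and 5.94% against 7.13, 5.86 and 8.09% of the CD3 level, so its groups overlapped (log2 difference −0.04, SE 0.12, limma adjusted p = 0.746), and its sign depended on which CD3 chain was used. Tox turned to slightly higher, 8.46, 7.32 and 8.73% against 6.13, 6.64 and 7.15% (0.23, SE 0.09, limma adjusted p = 0.0349). That call was lost without replicate 1 or 3 labelled allogeneic (limma adjusted p = 0.0917 and 0.104), without replicate 1 or 2 labelled syngeneic (0.118 and 0.0792), and when scaled to Cd3e or Cd3g alone (0.262 and 0.499). Eomes rose from 1.75, 1.66 and 2.09% to 9.33, 8.28 and 9.60%, a 4.95-fold difference (1.53, SE 0.09, limma adjusted p = 1.45e-06). Eomes lay above the median of all genes on this scale, whereas Tox and Cd160 lay below it.

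**Figure D2:**
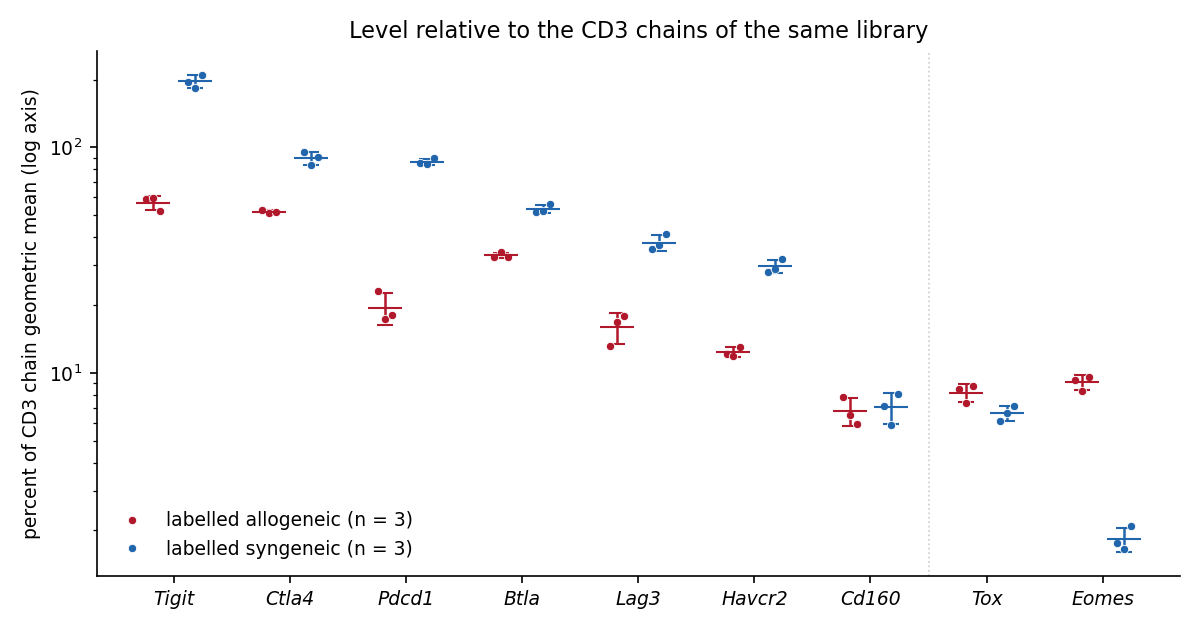
Level of each member as a percentage of the geometric mean FPKM of the 4 CD3 chains of the same library, on a log axis, with the mean and SD (n = 3 per group). Groups overlap for Cd160 only, Eomes stands at about 9% against under 3%, and Tigit exceeds 100% in the group labelled syngeneic.

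**Figure D3:**
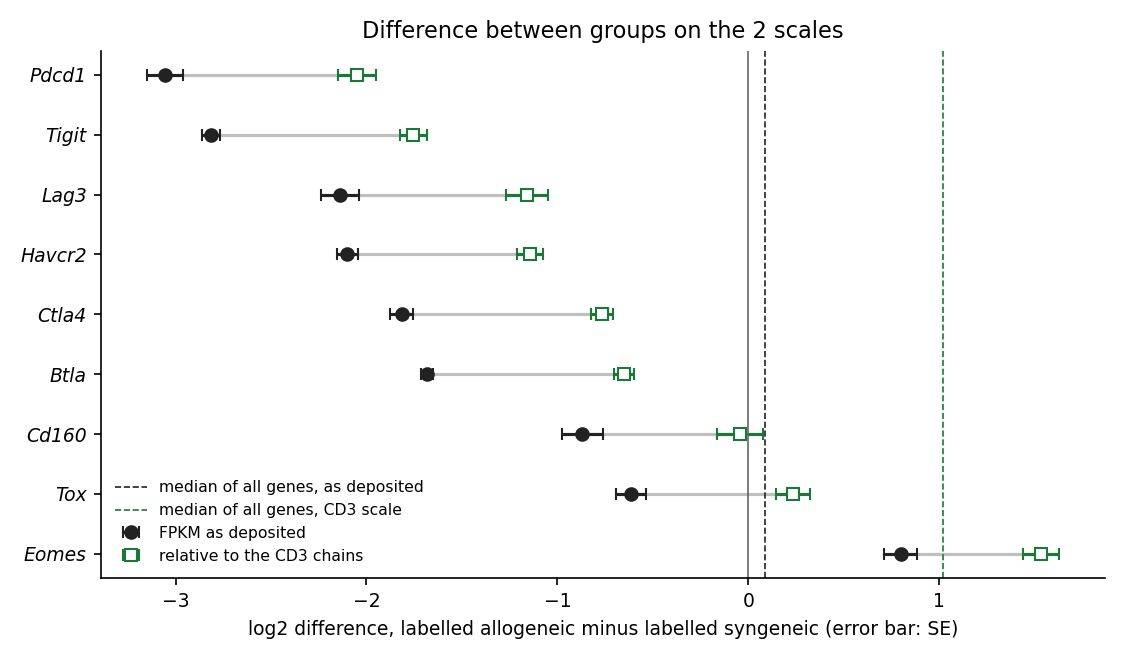
Log2 difference of each member, libraries labelled allogeneic minus labelled syngeneic, with its SE, for FPKM as deposited (filled circles) and relative to the CD3 chains (open squares). Dashed lines mark the median of all genes, 0.09 and 1.02. Pdcd1 and Tigit are lowest on both scales, at −2.05 and −1.75 relative to the CD3 chains, an order that scaling whole libraries largely keeps.

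The order of the members was nearly the same in both groups. For FPKM in the group labelled syngeneic it ran Tigit, Ctla4, Pdcd1, Btla, Lag3, Havcr2, Cd160, Tox and Eomes, and the neighbours Ctla4 and Pdcd1 overlapped, as did Cd160 and Tox. In the group labelled allogeneic it ran Tigit, Ctla4, Btla, Pdcd1, Lag3, Havcr2, Eomes, Tox and Cd160. There Pdcd1 overlapped Lag3, Lag3 overlapped Havcr2, and the last 3 overlapped in turn. The exchanges were thus of Pdcd1 with Btla and of Eomes with Cd160.

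The make-up of the receptor pool, which no scaling between libraries can change, shifted towards Tigit and Pdcd1 in the group labelled syngeneic. The 7 receptors summed to 63.5 ± 1.11 FPKM where the label was allogeneic, against 343.6 ± 8.07 FPKM. Tigit made up 28.9% ± 1.504 against 39.3% ± 0.567 of that sum, and Pdcd1 9.89% ± 1.42 against 17.2% ± 0.386. In exchange Ctla4 made up 26.4% ± 0.601 against 17.9% ± 1.01, Btla 16.9% ± 0.575 against 10.7% ± 0.267 and Cd160 3.43% ± 0.414 against 1.398% ± 0.153. Groups did not overlap for these 5 (two-sided exact permutation p = 0.1 each, the smallest that 3 against 3 allows). No count over all genes was made for such shares, and in FPKM as deposited 72.5% of genes tested did not overlap. Havcr2 (6.29% ± 0.459 against 5.93% ± 0.266, exact permutation p = 0.6) and Lag3 (8.12% ± 1.42 against 7.55% ± 0.404, exact permutation p = 0.5) overlapped.

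**Figure D4:**
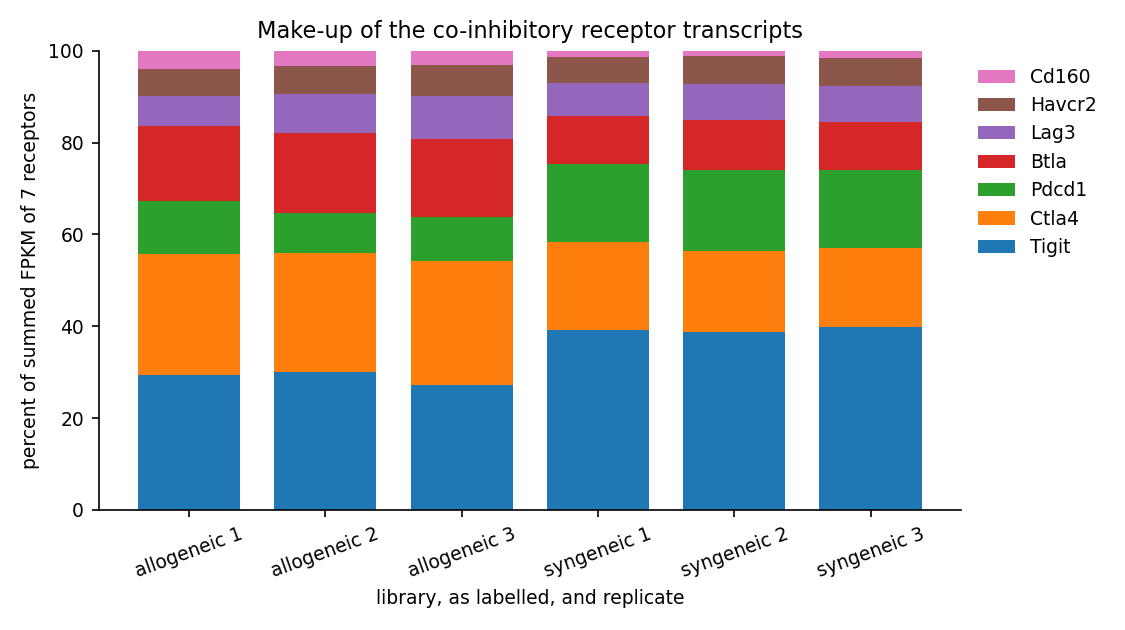
Share of each of the 7 co-inhibitory receptors in their summed FPKM, in percent, one bar per library. Tigit takes 27.2 to 30.1% in the group labelled allogeneic and 38.7 to 39.8% in the other, and Ctla4 25.9 to 27.1% against 17.1 to 19.1%.

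Set against Pdcd1 in the same library, each of the other 8 members was relatively more abundant in the group labelled allogeneic. The FPKM ratio of Tigit to Pdcd1 was 2.96 ± 0.439 against 2.28 ± 0.082 and that of Ctla4 to Pdcd1 2.71 ± 0.360 against 1.04 ± 0.067. For Eomes it was 0.471 ± 0.064 against 0.0212 ± 0.0019. Groups did not overlap for any of the 8 ratios of FPKM + 1, and p was 0.1 for each after adjustment over the 8 (two-sided exact permutation test, its smallest value). The same held for 99.6% of genes set against Pdcd1, so the count is near the background. The Tigit ratio reversed with a pseudocount of 5.

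In 4 pairs chosen after the values were seen, members were set against a partner in the same library. Tigit over Cd226, its activating rival, was 1.07, 1.07 and 0.985 in the libraries labelled allogeneic and 5.79, 5.79 and 7.40 in the others. Ctla4 over Cd28 was 1.09, 1.004 and 1.11 against 1.95, 1.78 and 1.88. So in the first group the transcripts of the inhibitory and the activating receptor were near equal per length in both pairs. In the second group the inhibitory one led. These are ratios in bulk RNA of mixed cells, where the transcripts of a pair need not come from the same cells. The part of other cells in them was not tested. Ctla4 over Foxp3 was 1.07 ± 0.020 against 10.3 ± 0.381, and Eomes over Tbx21, the other T-box factor of these cells, 0.297 ± 0.020 against 0.0426 ± 0.0040. Since the pairs were chosen for these values, they are a description and no test is given.

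Ligands of these receptors did not share one direction. Of 15 listed, 12 could be tested, with 6 lower and 6 higher in the group labelled allogeneic and a median log2 difference of −0.11. Over all genes tested 26.6% were called lower and 40.7% higher, and the counts of each list below stand beside these shares. Pdcd1lg2, the PD-1 ligand PD-L2, fell most, from 6.396 ± 0.220 to 1.60 ± 0.186 FPKM (−1.51), and Cd86, a CTLA-4 ligand of antigen-presenting cells, rose most, from 2.09 ± 0.317 to 7.63 ± 0.694 FPKM (1.48). Cd274, the other PD-1 ligand, singled out after its values were seen, was at 13.1 ± 0.190 against 34.7 ± 1.32 FPKM and was still called lower relative to the CD3 chains (−0.30, limma adjusted p = 0.000374). On that scale 2 ligands were lower, 9 higher and 1 not called, beside 4.13% of all genes lower and 86.2% higher.

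Receptors that share those ligands, 6 in all, were split 4 lower and 2 higher (median −0.35). Cd28 stood at 15.7 ± 0.315 against 32.9 ± 1.49 FPKM (−1.02), Cd96, another CD155 receptor, at −0.66, Tnfsf14, an HVEM ligand, at −0.43 and Cd226 at −0.27. Pvrig, an inhibitory receptor of the same family (0.78), and Lta (0.66) were higher. Relative to the CD3 chains 5 were higher, as were 86.2% of all genes, so the count is near the background. Cd28 was not called (0.03, limma adjusted p = 0.645).

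Of 11 other inhibitory receptors tested, 7 were lower, 2 higher and 2 not called, with a median of −0.15. Klrc1, which encodes the natural killer receptor NKG2A, fell most, from 27.0 ± 0.571 to 1.496 ± 0.314 FPKM (−3.49), and Cd244, a receptor of natural killer and memory T cells, rose by 1.12. Relative to the CD3 chains Klrc1 (−2.65) was the only one lower. The other 10 were higher, as were 86.2% of all genes, whose median was 1.02.

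Signalling and trafficking partners were near the median of all genes, with 5 lower, 2 higher and 4 not called of 11 and a median of 0.03. Sh2d1a, the adaptor SAP, fell most (−0.91) and Grb2 rose most (0.39). The transcription factors known to induce the receptors or shape exhaustion were mostly lower, 17 of 21, with 2 higher, 2 not called and a median of −0.65. Tbx21, which encodes T-bet, fell from 29.6 ± 2.86 to 9.87 ± 0.957 FPKM (−1.49), and Myb, a factor of progenitor cells as well as T cells, rose from 6.96 ± 0.499 to 33.0 ± 1.02 FPKM (2.10). On the CD3 scale 6 of the 21 were lower and 13 higher, beside 4.13% and 86.2% of all genes. Tbx21 was at −0.47 there and Tox2, the paralog of Tox, named after its values were seen, at −0.82. No test was made over any list, and all 5 were chosen with earlier results of these data known.

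**Figure D5:**
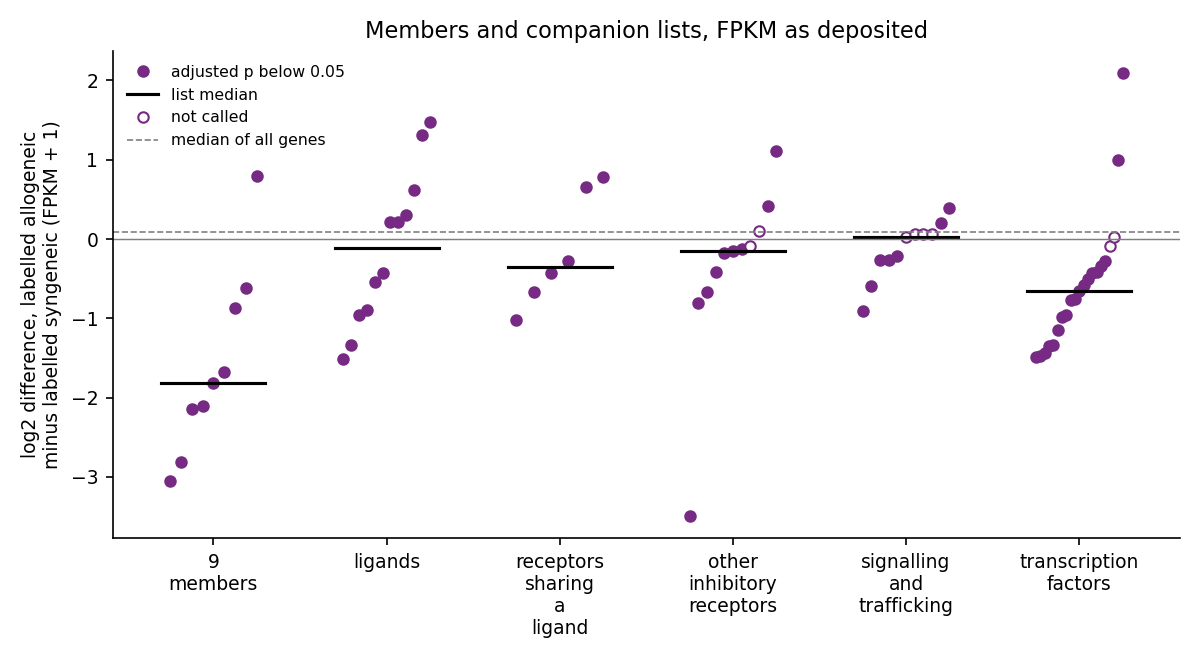
Log2 difference on the FPKM + 1 scale, libraries labelled allogeneic minus labelled syngeneic, of the 9 members and the tested genes of 5 companion lists, where filled points passed limma and black lines are list medians. The median of the members is −1.82, those of the lists lie between −0.65 and 0.03, and the dashed line is the median of all genes (0.09).

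By profile over the 6 libraries, as the root mean square difference of centred log2(FPKM + 1), the genes nearest to Pdcd1 were Trim12a (0.080), Gm43305 (0.091) and the antibody segment Ighv3-6 (0.0997). Nearest to Eomes were Fgd4 (0.028), Vwa5a (0.030) and Khdrbs3 (0.034). Within 2 groups of 3 such likeness is set mainly by the size of the group difference. Of the markers of follicular helper T cells, which carry PD-1, TIGIT and BTLA, 4 of 4 were called lower as deposited, beside 26.6% of all genes. Their sum was 4.33 to 5.26 against 11.2 to 12.7 FPKM, and Cxcr5, which defines these cells, was at 0.761 ± 0.244 against 2.52 ± 0.135 FPKM. Relative to the CD3 chains the sum was 13.4 to 16.01% against 17.1 to 18.1%, with 2 called lower (Cxcr5 and Il21), Bcl6 called higher (log2 difference 0.33) and Sh2d1a not called. On that scale 4.13% of all genes were called lower and 86.2% higher, and Bcl6 lay below their median of 1.02. The part of follicular helper T cells in the falls of the members was not tested.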

How the data were processed

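A table of the whole series was deposited, with a value for each gene in each library. The deposited values behave as FPKM, since multiplying by merged exon length (GENCODE M21, GRCm38) and a constant for the library returned whole reads, to within 0.05, for 14580 of 15686 genes (92.9%), among them 7 of the 9 members (not Tigit and Btla). Ribosomal RNA was depleted, per the labels' protocols, and limma is named in the submitters' processing notes. The sources used here do not name an aligner, counter, build or annotation. Gene identifiers numbered 15672 in GENCODE M21.

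A gene needed 1 FPKM or more in 3 libraries (13235 genes did), and testing was on log2(FPKM + 1), which understates changes of low genes, with limma 3.58.1 in R 4.3.3 (with its trend option). Adjustment over all genes followed the Benjamini-Hochberg method at 0.05. The fit was repeated after dividing each library by its CD3 geometric mean. The step was tested on simulated data in which few genes changed and cell make-up was alike. That test therefore does not cover shifts as wide as those found here. Ratios to Pdcd1 and shares used exact permutation tests in SciPy 1.17.1. The members and lists were chosen with earlier results of these data known. Named from each companion list were the largest called fall and rise, or all of a list of at most 6. Alternatives were other pseudocounts, filters and normalizations, single scaling genes, voom on recovered reads, a replicate block and leaving out each library. The value of 1 listed B cell marker is not reported here.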

Additional observations from a re-analysis of the deposited data

How the results depend on the processing

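On FPKM as deposited, all 8 falls and the rise of Eomes kept their direction and their call under each of the alternatives in which the member could be tested. At a minimum of 5 FPKM in 3 libraries Cd160, Tox and Eomes were not tested, so 0 members were called higher on either scale. Relative to the CD3 chains, Pdcd1, Tigit, Ctla4, Havcr2, Lag3 and Btla stayed called lower throughout, and the number called higher was 1 to 2 when leaving out each library, 1 when scaled to Cd3e or Cd3g alone and 1 with the replicate block (Tox adjusted p = 0.0564 in limma). The replicate numbers are not known to pair libraries: deviations of same-numbered libraries correlated at −0.031, 0.016 and −0.054 across genes. Cd160 on the CD3 scale, never called, turned to 0.0948 scaled to Cd3d alone, 0.0949 scaled to Cd4 alone and 0.0833 scaled to Cd247 alone. It ran from −0.137 to 0.0409 when leaving out each library, and was above 0 without replicate 3 labelled allogeneic (0.0253) or replicate 3 labelled syngeneic (0.0409). The ratio of Tigit to Pdcd1 turned to −0.0713 with a pseudocount of 5. The causes were not tested. Voom on recovered reads could not include Tigit and Btla. Depth was thin for Eomes in the group labelled syngeneic (82 to 87 reads per library) and for Cd160 in the other (81 to 108), and reads were not recovered for Tigit and Btla.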
